A study of Homo sapiens with 6 samples.

Results

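The mRNAs of 10 epithelial keratin and adhesion genes were followed in a native RNA immunoprecipitation of the replication factor ORC1. They are KRT8, KRT18, KRT19, CDH1, EPCAM, CTNNA1, CTNND1, DSP, JUP and TJP1, chosen by gene symbol, and each had exactly 1 of the 23013 rows of the table. All libraries came from nuclei of untreated, asynchronous HCT116 cells, a human colorectal cancer line of epithelial origin grown in RPMI medium. The 3 Input libraries held nuclear lysate RNA with no antibody, and the 3 ORC1 IP libraries held RNA recovered with an antibody against ORC1, the subunit of the origin recognition complex. The labels give each ORC1 IP the replicate number of 1 input, as one RIP replicate. The comparison asked which nuclear RNAs come down with ORC1 beyond their level in the input. The data describe 1 cell line, and no library of a control antibody was analysed here. In RNA from a lysate of many cells, fewer cells with a transcript and less of it per cell cannot be told apart.

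Epithelial cells hold together through junctions that are anchored to the cytoskeleton. KRT8 pairs with the type I keratins KRT18 and KRT19 to build the intermediate filaments of simple epithelia. Desmosomes tie these filaments to the membrane through desmoplakin (DSP) and plakoglobin (JUP). In adherens junctions, E-cadherin (CDH1) is held by p120-catenin (CTNND1) and is linked to actin through alpha-catenin (CTNNA1). TJP1 encodes ZO-1, a scaffold of tight junctions, and EPCAM encodes a surface glycoprotein of epithelial cells that is used widely as a carcinoma marker.

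Recovered reads on genes ranged from 13703033 to 17248924 in inputs and from 25134156 to 36008733 in ORC1 IPs. Each of the 10 mRNAs had at least 548 reads in every library, and up to 76412. Normalised counts are these reads divided by 1 size factor per library, as the authors set it. ORC1 IP replicate 2 stood apart from the other ORC1 IPs. Mitochondrial genome transcripts took 5.995% of its reads, against 0.617% and 0.257% in ORC1 IPs 1 and 3 and 1.494% to 3.278% in inputs (95% Wilson intervals within 0.00928 percentage points, counting error only). It also held 116695 normalised counts of MALAT1, a nuclear long noncoding RNA, against 10644 to 35633 in the other 5 libraries. NEAT1, the nuclear RNA of paraspeckles, had 4229 there, 1505 and 1462 in ORC1 IPs 1 and 3, and 2391 to 3838 in inputs. For this reason the fold changes are also given without that library, and the part of these differences in the results was not tested. The keratin markers went with the epithelial origin of the cells, and not every mesenchymal or fibroblast marker was low. The epithelial markers KRT8, KRT18, KRT19, CDH1 and EPCAM were all present, at the levels given below, and VIM, the intermediate filament gene of mesenchymal cells, had 69.3 to 79.1 normalised counts in inputs. Of 13 mesenchymal and fibroblast markers, 9 had a row and 8 were tested, with sums of 2272 to 5943 in inputs and 2092 to 6557 in ORC1 IPs. In inputs most of that sum was FN1, with 1240 to 5133 normalised counts. These counts lay above those of CDH1 in inputs 1 and 2 and below them in input 3. They were not divided by length, and the longest transcript of FN1 (9171 nt) exceeds that of CDH1 (4811 nt). The order of these counts is therefore not an order of levels. SNAI1, COL1A1 and ZEB1 had at most 358, 298 and 152 in inputs, and SNAI2 had at most 2.11. Of 7 immune and endothelial markers only CD14 and KDR had a row, and their summed level was 1.58 to 5.85 in inputs and 6.91 to 26.8 in ORC1 IPs.

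Levels in the nuclear input were compared per kilobase of the longest annotated transcript, since longer transcripts collect more reads. The 3 keratins led the order. KRT19 had 16540 ± 6443 normalised counts per kilobase, KRT8 14902 ± 9246 and KRT18 8141 ± 6256 (SD, n = 3), and neighbours among them overlapped across the 3 inputs. These levels stood above 99.5% to 99.8% of all tested genes. Next came CTNNA1 at 2326 ± 349, JUP at 1910 ± 583 and EPCAM at 1706 ± 502 normalised counts per kilobase (SD, n = 3), again with overlapping inputs. The lowest keratin value, 3307 for KRT18 in input 1, lay above the highest CTNNA1 value, 2729. CTNND1 had 866 ± 14.3 and DSP 765 ± 161, which overlapped, and below them TJP1 had 445 ± 119 (SD, n = 3). By this length CDH1 was the lowest at 225 ± 59.5 normalised counts per kilobase (SD, n = 3), although its level stood above 68.0% of tested genes. The order depends on the transcript taken for the length. With the median transcript of each gene, KRT8 came before KRT19, CTNNA1 came before KRT18, DSP came before EPCAM and CTNND1, and TJP1 took the last place behind CDH1.

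**Figure D1:**
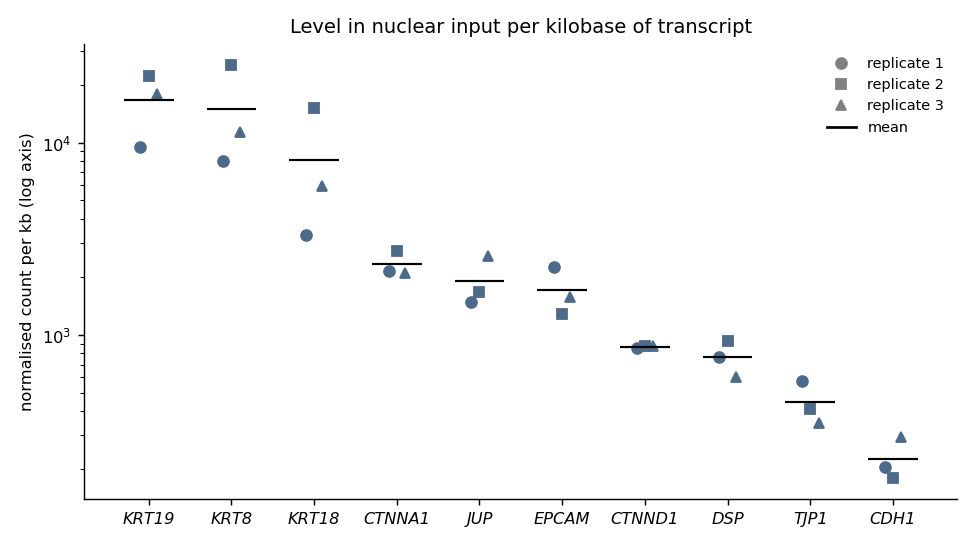
Normalised count per kilobase of the longest transcript (log axis) of the 10 mRNAs in the 3 nuclear inputs, ordered by the mean (bar). The 3 keratins lie at 3307 to 25405, all above the 7 other mRNAs, and CDH1 is lowest at 180 to 293.

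Next, ORC1 IP was compared with input. In limma, 0 of the 10 mRNAs passed an adjusted p of 0.05 in either direction (Benjamini-Hochberg adjustment over 16513 genes). Of all tested genes 3.69% passed, 2.28% as higher and 1.42% as lower. For none of the 10 did the 3 ORC1 IPs lie apart from the 3 inputs, whereas the groups did not overlap for 26.3% of tested genes. DSP and TJP1 had an unadjusted p under 0.05, and 21.6% of tested genes did. The edgeR test on recovered reads called 0 of the 10, against 2.57% of genes called higher and 1.31% called lower. DESeq2 called DSP and TJP1 higher and none lower, against 7.67% and 4.35% of genes. The median log2 fold change of the 10 mRNAs was 0.12, beside 0.01 for all tested genes. DSP (1.89) and TJP1 (1.52) stood at the top, CTNNA1, CTNND1, EPCAM and CDH1 lay between 0.59 and 0.06, and JUP with the 3 keratins lay between -0.52 and -0.63.

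**Figure D2:**
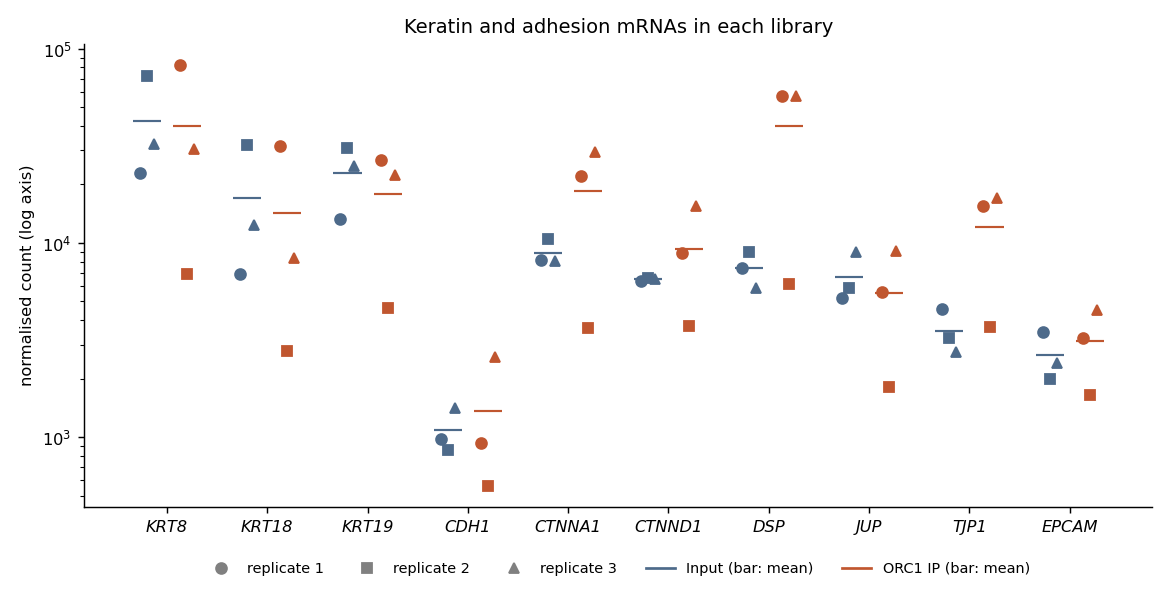
Normalised count (log axis) of each mRNA in the 3 inputs (blue) and 3 ORC1 IPs (orange), with marker shapes for RIP replicates and a bar for the mean of each group. ORC1 IP replicate 2 (orange squares) is the lowest library for 8 of the 10 mRNAs, and DSP and TJP1 stand far above the inputs in ORC1 IPs 1 and 3.

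The replicates did not share a direction. Paired by their labels, the 10 mRNAs had a median log2 IP/input of 1.22 in replicate 1, -1.17 in replicate 2 and 0.89 in replicate 3. In replicate 1 the value was positive for 8 of the 10, in replicate 3 for 7 and in replicate 2 for 1, which was TJP1. The deviations of input 2 from its group mean followed those of ORC1 IP 1 more closely (r = 0.497 across genes) than those of its own ORC1 IP (r = -0.240). Whether the numbers of inputs 1 and 2 are exchanged in the labels was not tested, and the sample titles hold the same pairs as the labels. With these inputs exchanged, a comparison chosen after seeing the data, the medians were 0.30 for ORC1 IP 1 over input 2 and -1.13 for ORC1 IP 2 over input 1, with 7 and 0 of the 10 positive. ORC1 IP 2 was the lowest of the 6 libraries for 8 of the 10 mRNAs, against 25.7% of all tested genes. ORC1 IPs 1 and 3 both exceeded every input for DSP, TJP1, CTNNA1 and CTNND1, or 4 of 10, against 26.0% of tested genes. Without ORC1 IP replicate 2, all 10 log2 fold changes were positive with a median of 0.56, and DSP, TJP1 and CTNNA1 were called higher (3 of 10, against 11.9% of all tested genes called higher in that fit). The edgeR test without that library called the same number.

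**Figure D3:**
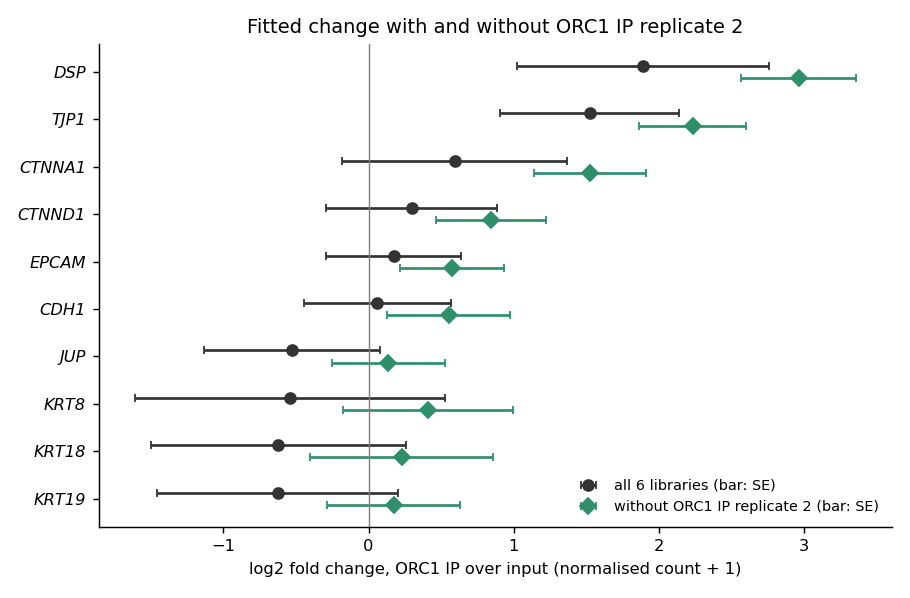
Log2 fold change of ORC1 IP over input with its standard error for each mRNA, from limma on all 6 libraries (circles) and without ORC1 IP replicate 2 (diamonds). Every value is higher without that library, and DSP (1.89 and 2.96) and TJP1 (1.52 and 2.23) are the highest in both fits.

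Among the 10, KRT8 and KRT18 had the widest ratio of highest to lowest library. Positions here and below are those of GENCODE v44 on GRCh38. KRT8, the type II keratin of simple epithelia (ENSG00000170421, chromosome 12, 52897187 to 52949954, minus strand), had 22866, 72708 and 32376 normalised counts in the 3 inputs in the order 1, 2, 3, against 82363, 6930 and 30564 in the ORC1 IPs in the same order. The highest and the lowest value were thus both in ORC1 IPs, and the inputs lay between them. The fold change on the log2 scale was -0.54, with an SE of 1.07 and limma adjusted p = 0.815, and the 95% interval ran from -2.86 to 1.77. KRT18, its type I partner (ENSG00000111057, chromosome 12, 52948871 to 52952906, plus strand), had 6906, 31753 and 12339 in the 3 inputs, against 31691, 2794 and 8408 in the ORC1 IPs. Both keratins thus followed the same order of libraries apart from the exchange of their highest, input 2 and ORC1 IP 1. KRT18 had a log2 fold change of -0.62, with an SE of 0.88 (limma adjusted p = 0.736). KRT19, a further type I keratin (ENSG00000171345, chromosome 17, 41523617 to 41528308, minus strand), had 13245, 30860 and 24869 in the 3 inputs, against 26696, 4632 and 22393 in the ORC1 IPs. On the log2 scale the fold change was -0.63, with an SE of 0.83 and limma adjusted p = 0.714, and ORC1 IP 2 was again the only library far below the others. The negative sign of all 3 rested on that library, since without it the values were 0.41, 0.23 and 0.17 for KRT8, KRT18 and KRT19.

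The ratio of the partners KRT8 and KRT18 moved far less than their levels. The log2 ratio of KRT8 to KRT18 was 1.73, 1.195 and 1.39 in the 3 inputs, against 1.38, 1.31 and 1.86 in the ORC1 IPs. Its mean was 1.44 ± 0.269 (SD, n = 3) in inputs and 1.52 ± 0.301 (SD, n = 3) in ORC1 IPs, so the difference was smaller than the spread between replicates. Of all pairs among the 10 mRNAs, KRT8 and KRT18 lay nearest in their centred log2 values over the 6 libraries (Euclidean distance 0.58), ahead of EPCAM and CTNND1 (0.76).

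Reads of keratin genes can come from copies in the genome. The table held 63 rows for copies of KRT8, KRT18 and KRT19 with pseudogene symbols (KRT8P, KRT18P and KRT19P), of which 24 were tested. Together they held 8277 normalised counts in the average input, or 9.10% of the summed counts of the 3 genes and their copies. The highest was KRT8P3, with 1936, 5982 and 2673 normalised counts in the 3 inputs, against 6154, 566 and 2014 in the ORC1 IPs, the same order of libraries as KRT8 itself. Of the 50-base stretches of the main transcript, 39.2% for KRT8 and 35.3% for KRT18 were also present in transcripts of other genes, against 1.79% for KRT19. The annotated spans of KRT8 and KRT18 further overlap on opposite strands. CDH1, EPCAM, CTNNA1, DSP and TJP1 also overlap an annotated gene on the opposite strand. On the same strand CDH1, EPCAM, CTNNA1, CTNND1 and TJP1 overlap another annotated gene, and KRT8 and KRT18 do not. The part of these overlaps in the counts was not tested. By the shared stretches, the levels of KRT8 and KRT18 are less certain than those of the mRNAs described below, with the exception of CTNND1.

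Of the cadherin and catenin mRNAs, CTNNA1 and CTNND1 had ORC1 IPs 1 and 3 above all inputs, and CDH1 did not. CTNNA1, whose product links cadherin complexes to actin (ENSG00000044115, chromosome 5, 138610967 to 138935034, plus strand), had 8211, 10454 and 8070 normalised counts in the 3 inputs, against 22074, 3644 and 29529 in the ORC1 IPs. ORC1 IPs 1 and 3 lay above all inputs and ORC1 IP 2 below all of them. With all libraries the log2 fold change was 0.59, with an SE of 0.77 and limma adjusted p = 0.708. Without ORC1 IP 2 it was 1.53, with an SE of 0.39 and limma adjusted p = 0.0147. LRRTM2, which overlaps CTNNA1 on the opposite strand, had at most 44.1 normalised counts in any library.

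CTNND1, the p120-catenin that stabilises cadherin at the membrane (ENSG00000198561, chromosome 11, 57753243 to 57819546, plus strand), was the most even of the 10 in inputs, with 6407, 6614 and 6563 normalised counts. In ORC1 IPs it had 8905, 3754 and 15414, so the ORC1 IPs spread to both sides of a narrow input range. Its log2 fold change was 0.30, with an SE of 0.59 and limma adjusted p = 0.817, and 0.84 without ORC1 IP 2 (limma adjusted p = 0.135). In GENCODE v44, 77.1% of its 50-base stretches were shared with 2 genes that overlap it on the same strand. Reads were counted on an hg19 annotation, and whether this sharing altered its count was not tested. CDH1, the E-cadherin gene itself (ENSG00000039068, chromosome 16, 68737292 to 68835537, plus strand), had 982, 864 and 1408 in the 3 inputs, against 930, 560 and 2600 in the ORC1 IPs. ORC1 IP 2 lay below all inputs, ORC1 IP 3 above all of them and ORC1 IP 1 among them, at a log2 fold change of 0.06, with an SE of 0.50 and limma adjusted p = 0.958. The 95% interval ran from -1.03 to 1.15.

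The 2 desmosomal mRNAs lay far apart in their fold changes. DSP, the plakin that anchors keratin filaments at desmosomes (ENSG00000096696, chromosome 6, 7541338 to 7586714, plus strand), had 7462, 8952 and 5831 normalised counts in the 3 inputs, against 56984, 6119 and 56947 in the ORC1 IPs. ORC1 IPs 1 and 3 nearly coincided and stood far above every input, whereas ORC1 IP 2 lay within the input range. The log2 fold change was 1.89 ± 0.87 (SE), with an unadjusted p of 0.0491 and an adjusted p of 0.228 (limma). Without ORC1 IP 2 it was 2.96, with an SE of 0.40 and limma adjusted p = 0.000758, the largest of the 10. With all libraries the adjusted p was 0.104 in edgeR and 0.00314 in DESeq2.

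JUP, which binds both desmosomal cadherins and DSP (ENSG00000173801, chromosome 17, 41754604 to 41786931, minus strand), had 5217, 5842 and 9024 normalised counts in inputs. In ORC1 IPs it had 5599, 1806 and 9137, so that ORC1 IPs 1 and 3 lay close to the inputs of the same number. The fold change on the log2 scale was -0.52, with an SE of 0.61 and limma adjusted p = 0.666, and 0.14 without ORC1 IP 2 (limma adjusted p = 0.845). The ratio of DSP to JUP within a library does not depend on scaling. On the log2 scale it was 0.52, 0.62 and -0.63 in inputs and 3.35, 1.76 and 2.64 in ORC1 IPs, with means of 0.17 ± 0.692 and 2.58 ± 0.795 (SD, n = 3). In this ratio ORC1 IP 2 lay on the side of the other ORC1 IPs, above all inputs. In ORC1 IP 2 the DSP count lay within the input range and the JUP count below it. The pair was picked after its values were seen, so no test is given.

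TJP1, the tight junction scaffold ZO-1 (ENSG00000104067, chromosome 15, 29699367 to 29968915, minus strand), had a log2 IP/input of 1.75, 0.19 and 2.63 in the 3 replicates as labelled, and of -0.30 for ORC1 IP 2 over input 1. It had 4589, 3258 and 2763 normalised counts in the 3 inputs, against 15463, 3715 and 17061 in the ORC1 IPs. As for DSP, ORC1 IPs 1 and 3 stood well above the inputs and ORC1 IP 2 within them. On the log2 scale the fold change was 1.52 ± 0.62 (SE), with an unadjusted p of 0.0291 and an adjusted p of 0.173 (limma). Without ORC1 IP 2 it was 2.23, with an SE of 0.37 and limma adjusted p = 0.0015. DESeq2 gave an adjusted p of 0.014 with all libraries, and edgeR gave 0.107. EPCAM (ENSG00000119888, chromosome 2, 47345158 to 47387601, plus strand) had 3500, 1990 and 2426 in the 3 inputs, against 3235, 1656 and 4516 in the ORC1 IPs. As for CDH1, ORC1 IP 2 lay below all inputs, ORC1 IP 3 above all and ORC1 IP 1 among them. Its log2 fold change was 0.17, with an SE of 0.46 and limma adjusted p = 0.870.

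The study defined RNAs recovered by RIP-seq as those with a log2 fold change over 1 and an unadjusted p under 0.05. The study tested with DESeq2, and in DESeq2 on recovered reads DSP and TJP1 met this definition. On the limma fit, which is used in the rest of this paragraph, the same mRNAs met it, or 2 of 10 against 10.9% of all tested genes. In the other direction, with a log2 fold change under -1, there were 0 of 10 against 7.25%. With the replicate number as a block TJP1 alone met it (unadjusted p of 0.0400, against 0.0822 for DSP). Leaving out input 2, input 3, ORC1 IP 1 or ORC1 IP 3 left none of the 10 within it, and without input 1 TJP1 alone met it. Without ORC1 IP 2, DSP, TJP1 and CTNNA1 met it. The 10.9% holds for limma on all 6 libraries. No share of all genes meeting the definition is given for DESeq2, the block or a library left out. At an adjusted p under 0.05, limma called 2.28% of all tested genes higher with all libraries and 11.9% without ORC1 IP 2.

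The make-up of the 10 mRNAs within each library needs no scaling between libraries. KRT8, KRT18 and KRT19 together held 54.2%, 78.1% and 65.9% of the counts of the 10 in inputs and 55.4%, 40.3% and 31.2% in ORC1 IPs (95% Wilson intervals within 0.324 percentage points for each mRNA, counting error only). ORC1 IP 1 lay within the input range, and ORC1 IPs 2 and 3 below it. DSP held 9.40%, 5.17% and 5.52% in the 3 inputs, against 22.4%, 17.2% and 29.0% in the ORC1 IPs, so that each ORC1 IP exceeded each input. TJP1 held 5.78%, 1.88% and 2.61% in the 3 inputs, against 6.09%, 10.4% and 8.68% in the ORC1 IPs, also without overlap. A share of the 10 depends on the other mRNAs, and in normalised counts ORC1 IP 2 lay within the input range for DSP and TJP1. On those counts the groups lay apart for none of the 10 and for 26.3% of tested genes. No such value over all genes was computed for shares. The summed share of the 10 in all reads, in contrast, was lowest in ORC1 IP 2 at 0.244% and highest in ORC1 IP 1 at 0.841%, with inputs from 0.436% to 0.802%. These shares were looked at after the values of the single mRNAs were known.

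**Figure D4:**
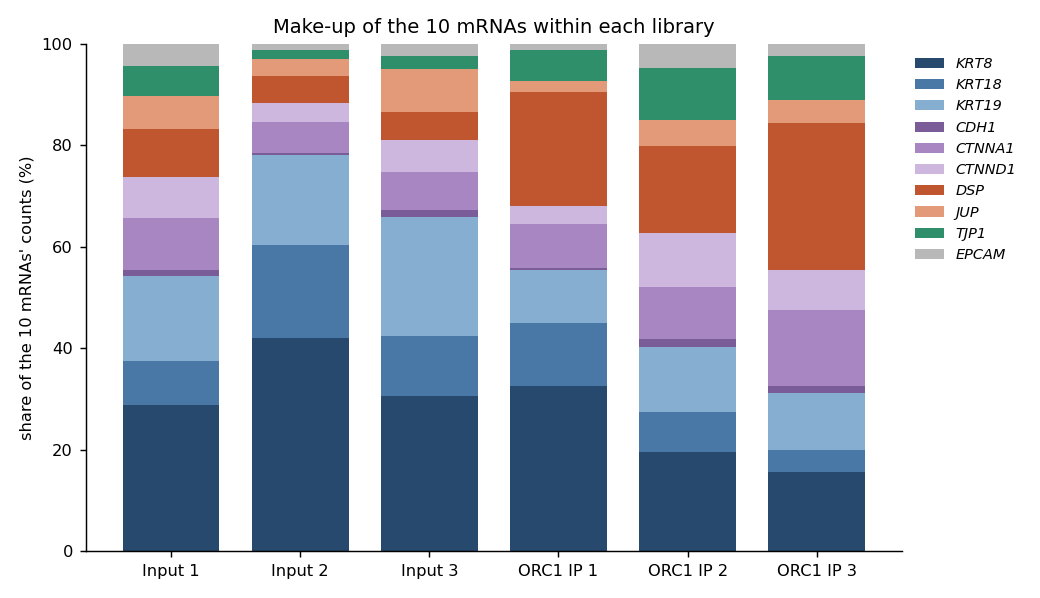
Share of each mRNA (in %) in the summed counts of the 10 mRNAs, for each of the 3 inputs and 3 ORC1 IPs. DSP takes 5.17% to 9.40% in inputs and 17.2% to 29.0% in ORC1 IPs, including ORC1 IP 2. In normalised counts DSP in ORC1 IP 2 lies within the input range.

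The 10 mRNAs cover a wide range of lengths, and DSP, TJP1 and CTNND1 are the longest. Longest annotated transcripts measured 9697 nt for DSP, 7950 nt for TJP1, 7540 nt for CTNND1 and 4811 nt for CDH1, and from 1390 nt for KRT19 to 3831 nt for CTNNA1 among the others. Across the 16062 tested genes with an annotated length, the median log2 fold change ran from -0.47 in the shortest length decile to 0.54 in the longest. DSP and TJP1 lay above the median of the longest decile, and CTNND1, in the same decile, below it. The short KRT19 and KRT18 lay below the medians of their deciles, -0.30 and -0.26, and EPCAM, in the decile of KRT18, above. CTNNA1 and JUP share a decile with a median of 0.01 and lay on opposite sides of it, with JUP at 61.5% GC and CTNNA1 at 47.8% GC. After a correction of each library for GC content and transcript length, the log2 fold changes of DSP and TJP1 were 1.41 and 1.05 (limma adjusted p of 0.302 and 0.266). The keratins were then at -0.31 to -0.36.

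**Figure D5:**
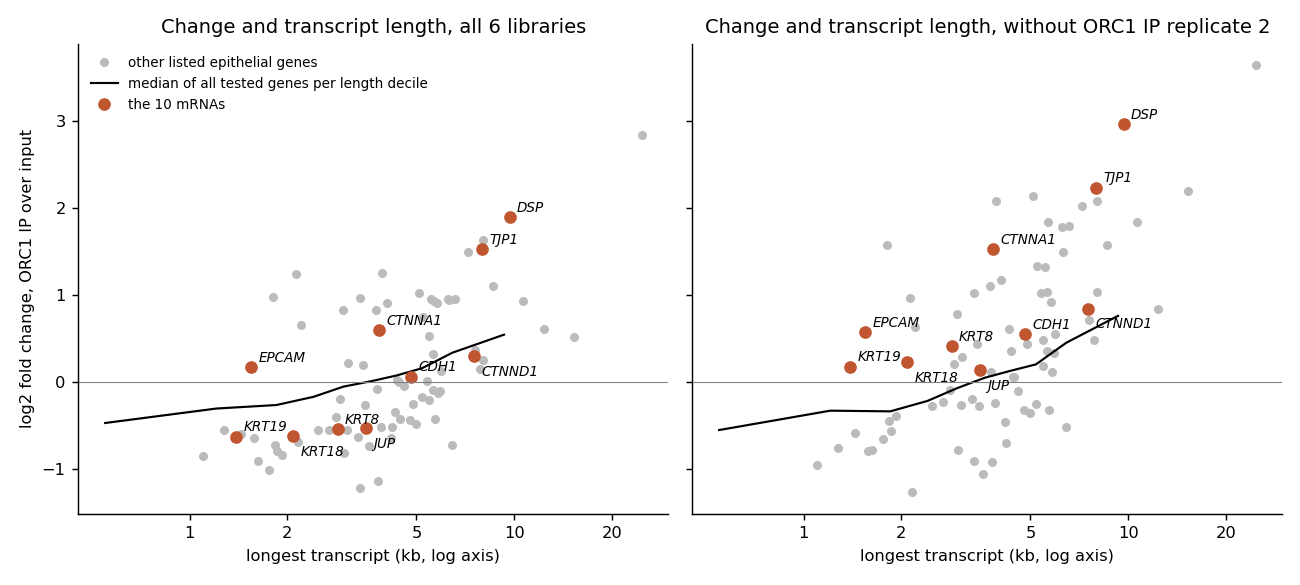
Log2 fold change of ORC1 IP over input against the length of the longest transcript (kb, log axis) for the 10 mRNAs (orange), the other listed epithelial genes (grey) and the median of all tested genes in each length decile (line), with all 6 libraries on the left and without ORC1 IP replicate 2 on the right. DSP and TJP1 lie above the line in both panels, and the line runs from -0.47 to 0.54 on the left.

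Tandem GAA repeats are a sequence that the study examined in RNAs recovered with ORC1. The stretch GAAGAAGAA was searched on the transcript strand in the main (Ensembl canonical) transcript in GENCODE v44, and is described here for 9 of the 10 genes. It was found in DSP and TJP1 at 2 places each and in KRT19 and CTNND1 at 1 place each. It was not found in KRT8, CDH1, EPCAM, CTNNA1 or JUP. These 6 places are shown with flanking bases, 5′ to 3′ as DNA letters with the repeat in capitals, because they set the 2 mRNAs with the largest fold changes beside a keratin mRNA that holds the same stretch. The number after each name is the first base of the repeat, counted from the 5′ end of the transcript.
DSP at 3613: gatgaaaagaGAAGAAGAAaatctgtggaa
DSP at 5406: cttgatgttaGAAGAAGAActgcggaacct
TJP1 at 764: caattagaagGAAGAAGAAagttcaaatac
TJP1 at 1943: tattggctcaGAAGAAGAAggatgtttatc
KRT19 at 703: tggcctacctGAAGAAGAAccatgaggagg
CTNND1 at 4293: gtgtttttggGAAGAAGAAgacctctagga
Each run is 3 units long. The CTNND1 run lies in the 3′ untranslated region, and the others lie in coding sequence. Among all tested genes, 29.1% of those in the longest length decile held the stretch in their longest transcript, against 7.78% in the decile of KRT19. Of the 9 genes, DSP, TJP1, CTNND1 and KRT19 hold it, at log2 fold changes of 1.89, 1.52, 0.30 and -0.63. CTNNA1, EPCAM, CDH1, JUP and KRT8 do not, at 0.59, 0.17, 0.06, -0.52 and -0.54. The part of this stretch in the fold changes was not tested.

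Other genes of the same structures were taken from lists drawn up by function. Of 81 genes for other keratins, desmosomes, adherens junctions, tight junctions and polarity, hemidesmosomes and matrix adhesion, and epithelial regulators, 75 had a row and 72 were tested. In limma 0 of the 72 were called, against the background shares given above, and in edgeR likewise 0. DESeq2 called 5 higher (MLLT4, LIMA1, CLDN15, CGNL1 and DST) and 2 lower (SPINT2 and CD9) of the 72, against 7.67% and 4.35% of all tested genes. At an unadjusted p under 0.05, 9 lay higher and 4 lower of the 72, against 21.6% of all tested genes in either direction. Their median log2 fold change was -0.08, and 34 of the 72 were positive. Without ORC1 IP 2, 15 of the 72 were called higher and 1, KRT10, lower, with a median of 0.31 (11.9% and 6.38% of all genes in that fit).

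Among 9 tested desmosomal genes the median log2 fold change was 0.36. PPL and EVPL, which encode plakins like DSP, were highest in this list at 0.95 each (limma adjusted p of 0.452 and 0.427), and PERP was lowest at -0.52. Both plakins were called without ORC1 IP 2, at 1.78 and 1.79 (limma adjusted p of 0.0176 and 0.00889). PPL had 1836, 1544 and 4285 normalised counts in the 3 inputs, against 5340, 1415 and 11633 in the ORC1 IPs, with ORC1 IPs 1 and 3 above all inputs and ORC1 IP 2 below them. The desmosomal cadherin gene DSG2 was at -0.42 (limma adjusted p = 0.656). Among 11 adherens junction genes, AFDN (listed as MLLT4), which joins nectins to actin, was highest at 1.63 (limma adjusted p = 0.0663). It had 1790, 1198 and 1293 normalised counts in the 3 inputs, against 5420, 2328 and 6504 in the ORC1 IPs. The groups did not overlap, as for 26.3% of all tested genes in either direction. NECTIN2 (listed as PVRL2) was lowest at -0.55, and the beta-catenin gene CTNNB1 was at -0.25 (limma adjusted p = 0.880).

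Of 19 tight junction and polarity genes, 10 were positive and the median was 0.00. CGNL1, a cingulin relative, was highest with a log2 fold change of 1.496 (limma adjusted p = 0.133), and the claudin gene CLDN7 was lowest at -0.84 (limma adjusted p = 0.371). Their longest transcripts measured 7214 nt and 1923 nt. After the correction for GC content and length CGNL1 was at 1.22 and CLDN7 at -0.57. Among 12 genes of hemidesmosomes and matrix adhesion, the plakin gene DST was highest at 2.83 (limma adjusted p = 0.0705). It had 6501, 8610 and 3971 in the 3 inputs, against 63010, 14227 and 90109 in the ORC1 IPs. These groups did not overlap either, as for 26.3% of all tested genes. The tetraspanin gene CD151 was lowest at -0.79 (limma adjusted p = 0.328). After the correction for GC content and length DST was at 1.85 and CD151 at -0.53. PLEC, a further plakin gene of this list, was at 0.51 (limma adjusted p = 0.875), with ORC1 IP 2 below every input. Without ORC1 IP 2 PLEC was at 2.19 (limma adjusted p = 0.0444).

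Of 9 other keratins listed, 8 had a row and 6 were tested, with a median of 0.07. KRT20, a keratin of intestinal epithelium, was highest at 0.98 with at most 23.6 normalised counts in inputs, and KRT7 was lowest at -0.91 with at most 24.6 (limma adjusted p of 0.524 and 0.415). Of 15 tested epithelial regulators and surface proteins, 3 were positive, and the median was -0.63. KLF5, an epithelial transcription factor, was highest at 0.97 (limma adjusted p = 0.145) and the tetraspanin gene CD9 was lowest at -1.21 (limma adjusted p = 0.107). In either case the groups did not overlap, as for 26.3% of all tested genes. Neither was called without ORC1 IP 2 (limma adjusted p of 0.0707 and 0.0743). Among the 8 tested mesenchymal and fibroblast markers, ZEB1 was highest at 1.58 and ACTA2 lowest at -0.45 (limma adjusted p of 0.102 and 0.678). Of these 8, DESeq2 called ZEB1 and COL1A1 higher (DESeq2 adjusted p of 0.0355 and 0.0354), against 7.67% of all tested genes. Limma without ORC1 IP 2 called COL1A1 higher (adjusted p = 0.0276), against 11.9% of all tested genes in that fit. ZEB1 and COL1A1, or 2 of 8, also met the definition of the study, against 10.9% of all tested genes. The part of these markers in the results was not tested.

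The genes whose profile over the 6 libraries lay nearest to the median profile of the 10 mRNAs were SHROOM3, MTHFD1L and SNRNP70, at Euclidean distances of 0.24, 0.27 and 0.28 in centred log2 values among genes with a mean of at least 1000. SHROOM3 had 1201, 1589 and 1566 normalised counts in the 3 inputs, against 3141, 624 and 3594 in the ORC1 IPs, high in ORC1 IPs 1 and 3 and lowest in ORC1 IP 2. On the log2 scale the fold change was 0.41 (limma adjusted p = 0.731).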

How the data were processed

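Nuclear RNA of HCT116 cells was sequenced by the authors from 3 inputs and 3 ORC1 immunoprecipitates as stranded total RNA. Reads were trimmed with Trimmomatic, aligned with STAR to hg19 and counted per Ensembl gene with featureCounts. Strand and multi-mapping settings are not given in the sources used here. The deposited signal values per library are gene counts that the authors divided by 1 size factor per library, so whole reads could be recovered: 100% of values in each library were whole multiples of its smallest value within 0.001. The authors' fold changes, their errors, test statistics and p-values were not used.

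Log2(normalised count + 1) was tested in limma 3.58.1 (R 4.3.3; intensity trend, two-sided, Benjamini-Hochberg) for 16513 genes with a mean of at least 10. Fold changes on that scale are too small for genes with few counts. The labels do not say whether replicates were separate cultures, so p-values measure only the spread between these samples. Alternatives were edgeR 4.0.16 and DESeq2 1.42.0 on recovered reads, other pseudocounts, filters and scalings, no trend, a replicate block, a correction for GC content and length, and leaving out each library. Code was tested on simulated data. The labels pair inputs and ORC1 IPs by RIP replicate. Across genes, the deviation of each input from its group mean correlated with that of its own ORC1 IP at -0.322, -0.240 and 0.215, whereas input 2 and ORC1 IP 1 reached 0.497. Whether inputs 1 and 2 are exchanged in the labels was not tested, and values per replicate rest on the numbers as labelled.

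Positions, lengths and sequences come from GENCODE v44 (GRCh38), matched by Ensembl identifier for 16062 tested genes (97.3%), because no hg19 annotation was used. Members and gene lists were chosen with earlier results of these data known. Named genes were all 10 members, listed genes past the threshold (at most 10 per direction), the highest and lowest of each list, the highest keratin copy in input, MALAT1, NEAT1 and the mitochondrial transcripts, and the 3 nearest profiles. Other named genes (EVPL, PLEC, DSG2, CTNNB1, LRRTM2, KRT10, COL1A1 and listed genes named by an alternative test) were added after their values were seen. Some values and a sequence are not reported here.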

Additional observations from a re-analysis of the deposited data

How the results depend on the processing

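Of the 10 mRNAs, 0 were called lower under all 21 alternatives. The number called higher stayed at 0 except with DESeq2 on recovered reads (2), without ORC1 IP replicate 2 (3, so 0 to 3 when libraries were left out in turn) and in edgeR without ORC1 IP replicate 2 (3, chosen after seeing the data). The number past the definition of the study was 1 with a pseudocount of 5, with a minimum mean of 50 and with the replicate block in limma, 0 with the block in edgeR and with GC and length corrected, and 0 to 3 when libraries were left out in turn. The share of all genes past that definition is not given for these settings. DSP and TJP1 kept a positive log2 fold change under all 21 alternatives (1.35 to 2.96 and 1.05 to 2.23), as did CTNNA1 (0.02 to 1.53). KRT8, KRT18, KRT19 and JUP changed sign under 2 each, both without ORC1 IP 2, CTNND1 under 2, EPCAM under 3 and CDH1 under 4, with no call in either direction. Of the other listed genes, 1 (DST) was called higher with scaling by total count and 5 with DESeq2, 0 to 15 when libraries were left out, and 14 in edgeR without ORC1 IP 2. For lower calls these were 2 with DESeq2, 0 to 1 when libraries were left out, and 3 in edgeR without ORC1 IP 2 (KRT10, CLDN12 and RAB25). Scaling by total count moved the median of all genes from 0.01 to -0.19 and that of the 10 mRNAs from 0.12 to -0.10, relative to which the order of the mRNAs is unaltered. The median of the 10 ranged from -0.36 to 0.56 when libraries were left out. The replicate block changed no other call of the 10 mRNAs or the listed genes, and a block with inputs 1 and 2 exchanged (chosen after seeing the data) changed none of the 10. The cause of these differences was not tested. Each of the 10 mRNAs had at least 548 reads in every library.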
